A study of Mus musculus with 59 samples.

Results

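*Pou5f1*, *Sox2*, *Sall4*, *Utf1*, *Lin28a*, *Dppa4*, *Dppa2* and *Trim28* are 8 genes of the pluripotency network whose RNA is still found after embryonic stem cells (ESCs) start to differentiate. They were set by name, without a threshold on their values but with earlier results of these data known. They are 8 of the 24391 genes listed in each file. Their RNA was compared between mouse ESCs and embryoid bodies (EBs), and between control and mutant cells, in lines in which treatment deletes or mutates subunits of Polycomb repressive complex 1 (PRC1). All 8 genes were above 0 in each of the 59 libraries.

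RNA-seq libraries came from 6 conditional mouse ESC lines, each with ESCs and EBs, without or with 4-hydroxytamoxifen (4-OHT). All cells, controls included, carry an ERT2-Cre recombinase that 4-OHT activates. ESCs were grown on embryonic fibroblasts (MEFs) with LIF and inhibitors of FGF receptor, MEK and GSK3, and EBs were kept for 2 days in suspension without LIF or inhibitors. In the *Pcgf1* line, controls are Pcgf1f/f without 4-OHT and mutants are Pcgf1delta/delta with 4-OHT, with 4 control ESC, 5 mutant ESC, 5 control EB and 5 mutant EB libraries. In the Ring1A-pm and Ring1B-cpm line, called here the point-mutant line, all cells carry the Ring1apm/pm point mutation, and 4-OHT leaves a Ring1bpm/pm point mutant in place of Ring1b, with 2 libraries a group. The 4 other lines have 2 libraries a group. They are the Ring1A/B line (Ring1a-/- in all cells, with Ring1bf/f or its deletion), the Pcgf2/4 line (Pcgf2f/f with Pcgf4f/f), the Pcgf3/5 line (Pcgf3f/f with Pcgf5f/f) and the *Pcgf6* line (Pcgf6f/f), each deleted by 4-OHT in the mutant groups. By the paper, deletion came 2 days before EB formation for *Pcgf1* to *Pcgf5*, and together with EB formation for *Pcgf6* and in the Ring1A/B line. The time since deletion in each library is not given here, so in mutant cells it cannot be told apart from stage. No line without floxed alleles was analysed here. An effect of 4-OHT or of active Cre and an effect of the lost gene thus cannot be told apart in any line. The labels do not say whether replicates are separate cultures, so p-values measure only the spread between these libraries.

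*Pou5f1* (OCT4) and *Sox2* bind DNA together and hold the pluripotent state, and both are expressed in the naive state of ESCs and in the later epiblast. During the exit from naive pluripotency, factors such as KLF4 and TBX3 are lost while these core factors are kept until a germ layer is chosen. PRC1 silences developmental genes by ubiquitinating histone H2A, and its PCGF1 form is brought to unmethylated CpG-rich DNA by KDM2B.

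Libraries were read in TPM, a level scaled by transcript length and library total, so depth is unknown and no counting interval is given. Between 6039 and 9139 genes were listed at 0 in a library. In the *Pcgf1* line, *Pcgf1* was at 10.7-13.6 TPM in control ESCs, 0.627-2.77 in mutant ESCs, 7.3-16.6 in control EBs and 0.978-2.47 in mutant EBs, so the labels hold for its state. In the point-mutant line the RNA of *Rnf2* (RING1B) had a mean of 76.2 TPM in control ESCs, 59 in mutant ESCs, 69.9 in control EBs and 62.2 in mutant EBs. A point mutation can leave RNA levels as they are, so this checks no label. In the other 4 lines, label and file name give different conditions for 21 of 32 libraries, and different stages for 14, and these lines are described last. Libraries of the *Pcgf1* line were put in 3 series by the identifiers in their headers, which hold replicate 1, replicates 2 and 3, and replicates 4 and 5. For the last series, neighbouring identifier codes were merged into 1 by choice. The labels do not say what a series is. Counts over replicate numbers below treat numbers of the same series as separate pairs.

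The windows upstream of 3 of the genes are shown because *Dppa2* differs between control and *Pcgf1* mutant cells, while *Utf1* changes most between stages and *Sox2* is the member with the most CpG sites. Each holds 250 bases before the most upstream protein-coding transcript start of the gene, in build mm9 with the GENCODE M1 annotation, read 5′ to 3′ on the gene's strand, and capitals mark CG dinucleotides.
Dppa2, chr16:48310340-48310589, plus strand: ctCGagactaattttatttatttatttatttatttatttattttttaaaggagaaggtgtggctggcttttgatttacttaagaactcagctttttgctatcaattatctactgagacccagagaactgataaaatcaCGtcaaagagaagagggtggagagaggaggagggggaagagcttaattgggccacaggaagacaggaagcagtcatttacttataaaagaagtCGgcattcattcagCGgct
Utf1, chr7:147129438-147129687, plus strand: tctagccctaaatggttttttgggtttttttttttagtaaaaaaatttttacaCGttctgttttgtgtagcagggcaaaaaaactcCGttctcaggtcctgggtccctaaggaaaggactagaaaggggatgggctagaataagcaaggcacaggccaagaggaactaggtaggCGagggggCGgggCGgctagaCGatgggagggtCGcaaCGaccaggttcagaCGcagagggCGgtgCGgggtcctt
Sox2, chr3:34548677-34548926, plus strand: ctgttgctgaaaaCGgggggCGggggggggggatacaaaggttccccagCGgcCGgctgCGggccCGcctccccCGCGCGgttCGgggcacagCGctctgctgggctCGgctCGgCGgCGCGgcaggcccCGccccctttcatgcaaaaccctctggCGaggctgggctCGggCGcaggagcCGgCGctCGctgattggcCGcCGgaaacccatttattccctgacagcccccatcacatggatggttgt
The *Dppa2* window holds 4 CG, more than in 28.1% of 19187 such windows of protein-coding genes. *Utf1* has 11, more than in 52.6%, and *Sox2* has 25, more than in 87.0%. The median over all windows is 10, with quartiles of 3 and 19. *Lin28a* has 6, *Pou5f1* 7, *Sall4* 9 and *Trim28* 17. *Dppa2* lies at chr16:48310590-48319836. *Utf1* (chr7:147129688-147131011) has 2 exons and *Sox2* (chr3:34548927-34551383) has 1.

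Between control ESCs and control EBs of the *Pcgf1* line, 4 of the 8 genes rose, namely *Utf1*, *Dppa2*, *Lin28a* and *Dppa4*, and none fell. *Pou5f1*, *Sox2*, *Sall4* and *Trim28* were not called, and pairing the replicate numbers added *Trim28* as higher and *Sox2* as lower. The share of all genes called with pairing is not given here. Without pairing, 11.5% of all 20594 genes tested were called higher and 13.4% lower (limma on log2(TPM + 0.1), adjusted p under 0.05 over all genes). The median log2 fold change of the 8 genes was 0.45, beside 0 over all genes. In 3 of the 8 genes every EB library was above every ESC library, a pattern found higher in 10.1% of all genes.

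*Utf1*, a chromatin-bound protein of pluripotent cells, was at 159, 340, 303 and 245 TPM in the control ESC libraries and at 629, 1444, 1129, 1128 and 1256 TPM in control EBs. All EB libraries lay above all ESC libraries, and replicate 1 was the lowest in both groups. This was a log2 fold change of 2.10 (SE 0.27), or 4.28-fold, with an adjusted p of 1.62e-05 in limma, and it lay between 1.98 and 2.28 within the 3 library series.

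*Dppa2*, which with DPPA4 binds CpG-rich promoters of developmental genes and of genes of the early embryo, was at 45.5, 38.5, 38.6 and 45.9 TPM in control ESCs and at 105, 127, 124, 112 and 107 TPM in control EBs. The groups were far apart, with an SD of 4.14 TPM in ESCs and 10.1 TPM in EBs. *Dppa2* rose by 1.45 on the log2 scale (SE 0.11, limma adjusted p = 6.95e-08), or 2.73-fold. Its partner *Dppa4* was at 88.2, 93.3, 91.4 and 115 TPM in ESCs and at 116, 160, 107, 209 and 208 TPM in EBs. The highest ESC library overlapped the lowest EB library here, and EB replicates 4 and 5 were the highest. *Dppa4* rose by a log2 fold change of 0.67 (SE 0.19, limma adjusted p = 0.0121), and it was not called when only these 2 groups were fitted (0.0595).

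*Lin28a*, an RNA-binding protein that blocks maturation of let-7 microRNAs, was at 152, 203, 181 and 148 TPM in control ESCs and at 471, 683, 630, 313 and 315 TPM in control EBs. All EB libraries were higher, the replicates 4 and 5 by the least. *Lin28a* rose by 1.43 on the log2 scale (SE 0.32, limma adjusted p = 0.00272), and within the library series it ranged from 1.08 to 1.77.

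*Pou5f1* was among the most abundant RNAs at both stages, at 1688, 1079, 1027 and 1753 TPM in control ESCs and 1723, 1155, 1240, 1580 and 1621 TPM in control EBs. Replicates 2 and 3 were low and the others high in both groups, and the groups overlapped. Its log2 fold change was 0.10 (SE 0.25), with a 95% interval from -0.42 to 0.63 and a limma adjusted p of 0.825. Its level ranked between 78 and 98 among all genes in the 19 libraries of the line.

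*Sox2* was at 448, 752, 731 and 497 TPM in control ESCs and at 280, 422, 340, 501 and 482 TPM in control EBs. The groups overlapped, at a log2 fold change of -0.58 (SE 0.24, limma adjusted p = 0.084), and it passed the threshold when replicate numbers were paired (-0.61, SE 0.18, limma adjusted p = 0.012) or control ESC replicate 1 was left out (0.0492). Within the library series it was -0.68 for replicate 1, -0.97 for replicates 2 and 3, and -0.02 for replicates 4 and 5, so the last series showed next to no difference.

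*Sall4*, a zinc finger factor that works with OCT4 and the NuRD complex, was at 146, 432, 441 and 187 TPM in control ESCs and at 157, 415, 326, 166 and 158 TPM in control EBs. Replicates 2 and 3 were above all the others at both stages. The groups overlapped, at a log2 fold change of -0.26 (SE 0.45, limma adjusted p = 0.733). *Trim28* (KAP1), a corepressor of zinc finger proteins that silences retroelements, was at 832, 1285, 1296 and 971 TPM in ESCs and at 990, 1849, 1707, 1006 and 1031 TPM in EBs. The groups overlapped, and replicates 2 and 3 were again the highest. Its log2 fold change was 0.23 (SE 0.27, limma adjusted p = 0.594), and 0.31 with a limma adjusted p of 0.00806 when replicate numbers were paired. In bulk samples such as these, fewer cells expressing a gene and less RNA per cell cannot be told apart.

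**Figure D1:**
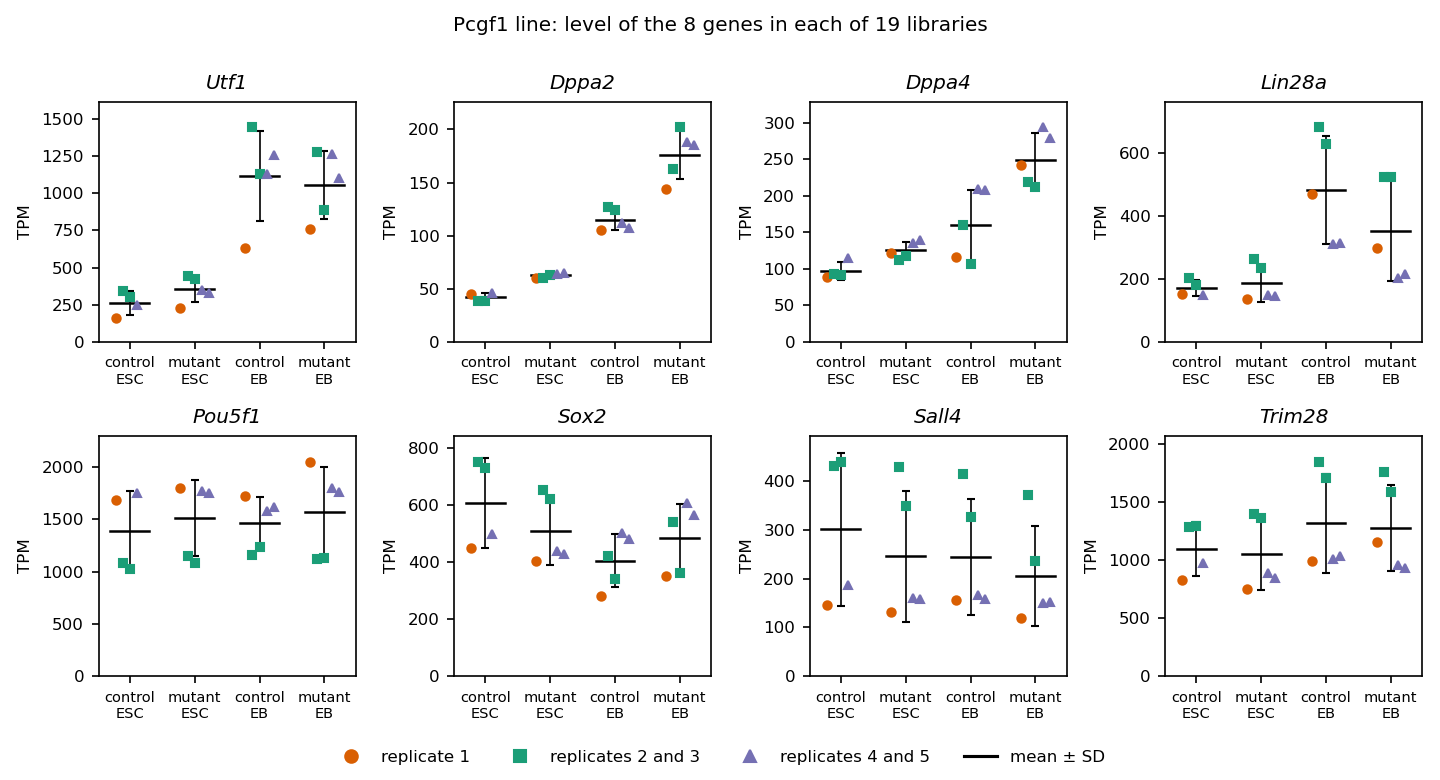
TPM (linear axis from 0) of the 8 genes in the 19 libraries of the Pcgf1 line, by group, with bars for mean ± SD and marker shape for the library series. The EB libraries of Utf1 and Dppa2 lie above all ESC libraries, while Pou5f1, Sall4 and Trim28 separate by series more than by group.

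Other genes of the network were counted in the same comparison. Of 16 genes of naive pluripotency, 13 fell and 1 rose (*Gbx2*), with a median log2 fold change of -2.75 over the list. *Klf4* had a mean of 958 TPM in control ESCs and 7.42 in control EBs, *Tfcp2l1* 472 and 14, *Tbx3* 404 and 16.6, and *Prdm14* 21.6 and 3.15. These are transcription factors of the naive state. Of 16 genes of the formative and primed epiblast, 11 rose and none fell, with a median of 2.60, among them the signal *Fgf5* (0.152 and 46.2 TPM), the POU factor *Pou3f1* (2.89 and 228 TPM), the DNA methyltransferase *Dnmt3b* (33.8 and 1492 TPM) and *Sox3* (1.93 and 52.8 TPM). The EB label is thus borne out by its 4 defining markers, all called higher, while the ESC markers *Klf4*, *Nanog*, *Esrrb* and *Zfp42* fell and *Pou5f1* and *Sox2* were not called.

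Of 16 paralogues of the 8 genes, 5 rose and 1 fell (*Sox15*). *Lin28b* rose from 6.51 to 42.2 TPM and *Sall2* from 2.10 to 53.4 TPM, beside *Pou3f1*, *Sox3* and *Pou2f2*. Of 13 NuRD genes, *Mbd3* (141 and 287 TPM) and *Mta3* (66.8 and 97.4 TPM) rose and *Mbd2* (23.8 and 13 TPM) fell. Of 12 genes of LIN28 function and let-7 processing, *Lin28b* rose and *Dis3l2* fell. None of 12 heterochromatin partners of TRIM28 was called. Nor was any of the 6 tested genes in a list of DPPA2 and DPPA4 targets and genes of the early embryo.

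MEF markers moved with stage. The sum of 10 fibroblast genes was 217-302 TPM in control ESCs and 53.1-98.8 TPM in control EBs, with *Col1a1*, *Col1a2*, *Col3a1* and *Postn* called lower and *Dcn*, *Mmp2* and *Thy1* higher. *Col1a1* made up most of it in ESCs, with means of 168 and 5.43 TPM, and *Lum* and *Postn* were listed at 0 in at least 1 EB library. The part of the feeder RNA in the changes of the 8 genes was not tested. Sums of 8 primitive endoderm genes were 18-27.8 TPM in control ESCs and 18.9-37.9 TPM in control EBs, and those of 6 mesoderm genes were 16.5-36.6 and 7.06-12.8 TPM.

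In *Pcgf1* mutant cells 3 of the 8 genes rose between ESCs and EBs, *Utf1*, *Dppa2* and *Dppa4*, against 8.13% of all genes called higher and 10.2% lower. When replicate numbers were paired, 5 were called, with *Lin28a* and *Trim28* added. The shares of all genes are those without pairing, and none is given with it. The median log2 fold change of the 8 was 0.57, beside 0 over all genes. Every EB library was above every ESC library for the same 3 genes, as for 6.68% of all genes.

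*Utf1* was at 226, 442, 420, 346 and 328 TPM in mutant ESCs and at 760, 1278, 889, 1262 and 1101 TPM in mutant EBs. It rose 3.02-fold, by 1.60 on the log2 scale (SE 0.25, limma adjusted p = 0.000174), with no overlap of the groups. *Dppa2* was at 59.8, 60.3, 63.3, 64.0 and 65.2 TPM in mutant ESCs and at 144, 163, 202, 188 and 185 TPM in mutant EBs. That is a log2 fold change of 1.48 (SE 0.11, limma adjusted p = 2.82e-08), or 2.80-fold, beside 2.73-fold in controls. *Dppa4* was at 122, 112, 118, 135 and 139 TPM in mutant ESCs and at 243, 219, 212, 294 and 279 TPM in mutant EBs. Each EB library was above each ESC library, at a log2 fold change of 0.99 (SE 0.18, limma adjusted p = 0.000532).

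*Lin28a* was at 136, 265, 236, 149 and 147 TPM in mutant ESCs and at 298, 525, 526, 203 and 216 TPM in mutant EBs. The groups overlapped through replicates 2 and 3 of the ESCs, although the EB library was the higher in 5 of 5 replicate numbers. At a log2 fold change of 0.86 (SE 0.30), limma gave an adjusted p of 0.0568, and 9.93e-05 when replicate numbers were paired. *Trim28* was at 752-1397 TPM in mutant ESCs and 934-1755 TPM in mutant EBs, with a log2 fold change of 0.28 and limma adjusted p-values of 0.521 without and 0.011 with pairing. Its EB library was the higher in 5 of 5 numbers.

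*Sox2* was at 404, 653, 622, 438 and 429 TPM in mutant ESCs and at 350, 539, 362, 605 and 564 TPM in mutant EBs. Replicates 1 to 3 were lower in EBs, and replicates 4 and 5 were higher. Over all libraries it was -0.08 on the log2 scale (SE 0.22, limma adjusted p = 0.891), with -0.20, -0.53 and 0.43 within the 3 library series. *Pou5f1* was at 1081-1803 TPM in mutant ESCs and 1121-2055 TPM in mutant EBs, with a log2 fold change of 0.05. *Sall4* was at 132-430 and 119-373 TPM, with a log2 fold change of -0.21, and was lower in EBs in 5 of 5 replicate numbers, with log2 differences from -0.56 to -0.04. Neither was called without or with pairing, and both overlapped between stages.

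In these cells the fibroblast sum was 166-244 TPM in ESCs and 18.9-34.3 TPM in EBs. Of the naive list 11 fell and 2 rose (*Gbx2* and *Fgf4*), and of the formative list 12 rose. Of the paralogues 6 rose, with *Sall2* at a mean of 3.18 TPM in mutant ESCs and 28.8 TPM in mutant EBs. Of the NuRD genes *Mbd3* and *Mta3* rose and *Mbd2* fell, and of the TRIM28 partners *Smarcad1* rose.

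Between mutant and control ESCs of the *Pcgf1* line, 1 of the 8 genes was called higher and none lower, with 0.32% of all genes called higher and 0.32% lower. This gene was *Dppa2*. Its control ESC libraries were at 38.5-45.9 TPM and its mutant ESC libraries at 59.8-65.2 TPM, with no overlap, which held higher for 2.1% of all genes. This is a 1.49-fold difference, at a log2 fold change of 0.57 (SE 0.11, limma adjusted p = 0.0252), and 0.39 to 0.71 within the 4 replicate numbers. The call depends on the spread that is used, since the adjusted p was 0.0571 when only the ESC groups were fitted and between 0.0502 and 0.109 without control ESC replicate 1, 2 or 3 or without mutant ESC replicate 2, 3, 4 or 5. With replicate numbers paired, *Dppa2* was still called.

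The mutant ESC library of *Utf1* was the higher in 4 of 4 replicate numbers, by 0.38 to 0.50 on the log2 scale. The groups overlapped because the numbers differ in level. Without pairing, the log2 fold change was 0.45 (SE 0.27) with a limma adjusted p of 0.735, and 0.42 (SE 0.11) with 0.0404 when numbers were paired, which adds *Utf1* to the called genes. *Dppa4* was at 88.2-115 TPM in control and 112-139 TPM in mutant ESCs, with a log2 fold change of 0.37 (SE 0.19, limma adjusted p = 0.614). *Sox2* was lower in 4 of 4 replicate numbers, with log2 differences from -0.23 to -0.15, without being called. *Pou5f1* (0.13), *Lin28a* (0.08), *Trim28* (-0.09) and *Sall4* (-0.30) had log2 fold changes below their SEs.

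Between mutant and control EBs, *Dppa2* was again the only one of the 8 genes called (1.08% of all genes higher and 0.874% lower), and none was lower. *Dppa2* and *Dppa4* were the 2 genes with no overlap, which held higher for 1.43% of all genes. *Dppa2* was at 105-127 TPM in control EBs and 144-202 TPM in mutant EBs, higher in 5 of 5 replicate numbers by 0.36 to 0.78 on the log2 scale. It was 1.52-fold higher, at a log2 fold change of 0.61 (SE 0.11, limma adjusted p = 0.0053), and the adjusted p was 0.0698 when only the EB groups were fitted. With replicate numbers paired, it was still called.

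*Dppa4* was at 107-209 TPM in control EBs and 212-294 TPM in mutant EBs. It was higher in 5 of 5 replicate numbers, by 0.42 to 1.07 on the log2 scale, and by 0.46 to 1.07 within the 3 library series. Its log2 fold change was 0.69 (SE 0.18) with a limma adjusted p of 0.0512, just above the threshold of 0.05, and 0.000901 when numbers were paired. Control EBs of replicates 4 and 5 were near the mutant range, and without control EB replicate 4 or 5 or mutant EB replicate 3 the adjusted p was 0.0269, 0.0272 or 0.045.

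*Lin28a* was lower in mutant EBs in 5 of 5 replicate numbers, with log2 differences from -0.66 to -0.26. Its groups overlapped, at 313-683 TPM in control EBs and 203-526 TPM in mutant EBs. At -0.49 on the log2 scale (SE 0.30) it had a limma adjusted p of 0.618, and 0.0237 when numbers were paired. *Sox2* was higher in 5 of 5 numbers, by 0.09 to 0.35, with a log2 fold change of 0.25 (SE 0.22, limma adjusted p = 0.776). *Sall4* was lower in 5 of 5 numbers, with log2 differences from -0.46 to -0.04, and a log2 fold change of -0.24 that was not called without or with pairing. *Utf1* (-0.06), *Pou5f1* (0.08) and *Trim28* (-0.03) had log2 fold changes below their SEs.

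**Figure D2:**
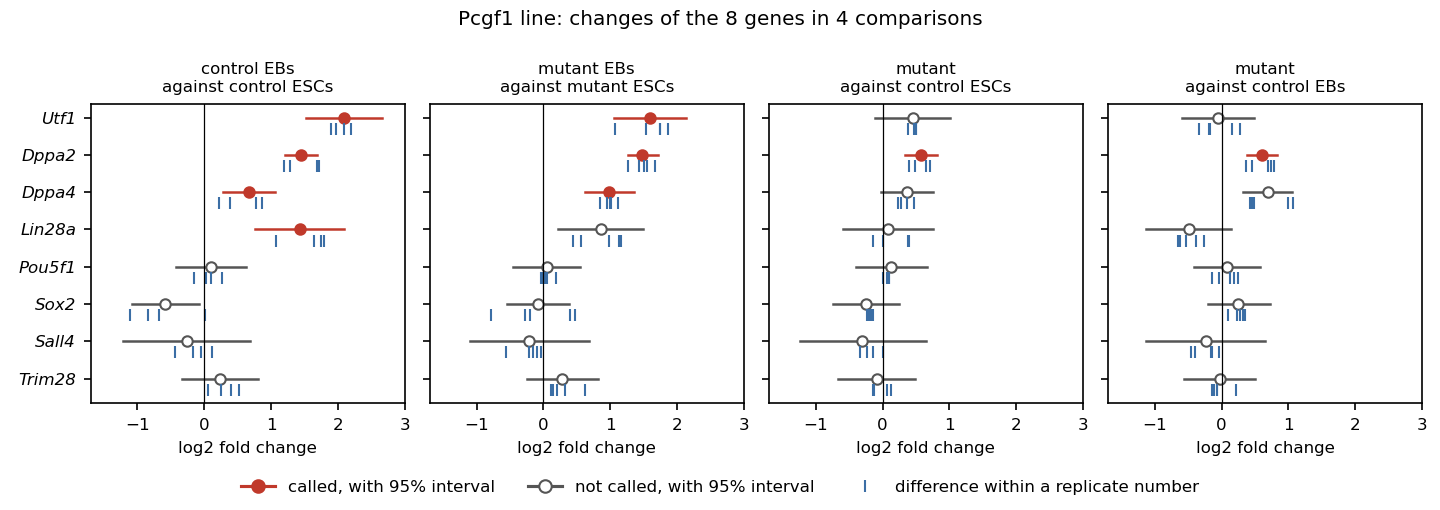
Log2 fold changes (log2(TPM + 0.1) scale) of the 8 genes in 4 comparisons of the Pcgf1 line, with 95% intervals, filled where called, and ticks for the difference within each shared replicate number. Dppa2 is called in all 4 comparisons, and all ticks of Dppa4 lie above 0.

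Of the naive list 5 of 16 genes were higher in mutant than in control EBs, and the list's median log2 change was 1.16 beside -0.03 over all genes, and none was lower. They were *Gbx2* (22 and 64.8 TPM), *Tfcp2l1* (14 and 42.3 TPM), the nuclear receptor gene *Nr0b1* (58.6 and 143 TPM), *Nr5a2* (8.52 and 18.9 TPM) and *Tdh*. Of the formative list 2 were higher and 1 lower, and of the paralogues 1 was higher (*Sall3*). None was called in the NuRD, TRIM28, LIN28 and DPPA lists. Sums over the 7 genes found of the DPPA list were lower in mutant EBs without overlap, at 17.6-48.6 TPM in control and 0.634-14.8 TPM in mutant EBs. The same sums overlapped in ESCs, at 5.39-47.0 and 6.5-38.8 TPM. Whether this is linked to *Dppa2* or *Dppa4* was not tested. In ESCs none of the naive list was called, *Otx2* of the formative list was lower (24.4 and 5.18 TPM), and *Hmga2*, a let-7 target, was higher (8.21 and 27.6 TPM). Markers of other cell types moved with state at both stages. In ESCs, sums of 6 trophectoderm genes were 45.5-56.4 TPM in control and 83.8-110 TPM in mutant libraries, without overlap (Krt8 was called higher), and mesoderm sums were 16.5-36.6 and 30.2-61.4 TPM, with none of 6 genes called. In EBs the trophectoderm sums were lower without overlap, at 88-116 and 64.5-85.5 TPM, with none of 6 genes called. Also in EBs, 4 of 8 primitive endoderm genes were higher (*Gata6*, *Pdgfra*, *Gata4* and *Col4a1*), with sums of 18.9-37.9 TPM in control and 25.4-61.2 TPM in mutant EBs, and fibroblast sums were lower in each mutant EB library. Their part in the differences of *Dppa2* and *Dppa4* was not tested.

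The difference between the mutant effect in EBs and that in ESCs was tested directly. It was called for none of the 8 genes by limma, with 0 past an unadjusted p of 0.05, beside 0% of all genes called higher and 0.00486% lower. Of all genes, 5.8% were under an unadjusted p of 0.05. With a block for replicate numbers or for library series, none of the 8 genes was called either. Without a block, the difference for *Dppa2* was 0.03 (SE 0.15) on the log2 scale, with a 95% interval from -0.29 to 0.36. For *Dppa4* it was 0.32 (SE 0.26), for *Lin28a* -0.57 (SE 0.44), for *Utf1* -0.50 (SE 0.37) and for *Sox2* 0.50 (SE 0.33). With SEs of this size, the lack of a call does not show that the mutant effects are equal at both stages.

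Ordered by mean TPM, the levels in control ESCs were *Pou5f1* (1387), *Trim28* (1096), *Sox2* (607), *Sall4* (301), *Utf1* (262), *Lin28a* (171), *Dppa4* (97.0) and *Dppa2* (42.1). The ranges of *Pou5f1* and *Trim28* overlapped, as did those of *Sall4*, *Utf1* and *Lin28a*, while *Dppa4* was below *Lin28a* and above *Dppa2* in all 4 libraries. In control EBs the order was *Pou5f1* (1464), *Trim28* (1317), *Utf1* (1117), *Lin28a* (482), *Sox2* (405), *Sall4* (245), *Dppa4* (160) and *Dppa2* (115). *Utf1* thus moved from the fifth place to the third, with EB libraries that overlapped those of *Trim28*. *Lin28a* and *Sox2* overlapped in EBs. The sum of the 8 genes was 3559-4222 TPM in control ESCs and 4471-6255 TPM in control EBs.

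Over the 19 libraries of the *Pcgf1* line, the genes most like each member in log2(TPM + 0.1) were taken from 8933 genes with a mean of at least 10 TPM. The libraries share stage, state and series, so these r values are descriptions. For *Utf1* they were *Il17d* (r = 0.977), *Rarg* (0.968) and *Cdk5r2* (0.968), and for *Dppa2* they included *Snx24* (0.969) and *Dusp9* (0.969). For *Dppa4* they were *Fbxo22* (0.968), the long noncoding RNA *Halr1* (0.929) and *Mta3* (0.922), and for *Lin28a* they were *Sephs1* (0.982), *Bend3* (0.978) and *Sall2* (0.972). For *Sox2* they were *Pkn3* (0.969), *Mov10* (0.963) and *Trpm4* (0.947). The genes nearest to *Pou5f1* were *Chchd2* (0.985), *Tomm6* (0.985) and *Atp5k* (0.981), those near to *Sall4* included *Extl3* (0.988) and *Dvl2* (0.979), and those nearest to *Trim28* were *Mon1b* (0.979), *Ncdn* (0.975) and *Elac2* (0.973). Among the members, r was 0.88 between *Utf1* and *Dppa2*, 0.86 between *Dppa4* and *Dppa2*, 0.81 between *Sall4* and *Trim28*, and -0.95 between *Pou5f1* and *Sall4*, the last following the series in which *Pou5f1* is low and *Sall4* high.

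In the point-mutant line, with 2 libraries a group, none of the 8 genes was called in any of 5 comparisons by limma without a replicate block. Between control ESCs and control EBs, 2 of the 8 had an unadjusted p under 0.05, as did 20.3% of all genes, and 2.73% of all genes were called higher and 2% lower. *Utf1* was at 604 and 360 TPM in control ESCs and at 1074 and 885 TPM in control EBs, higher at both replicate numbers. The log2 fold change was 1.06 (SE 0.27, limma adjusted p = 0.0764), and 0.0394 with a filter at a mean of 1 TPM. *Dppa4* was at 157 and 125 TPM in ESCs and at 230 and 178 TPM in EBs, with a log2 fold change of 0.53 (SE 0.16, limma adjusted p = 0.125). Both genes had no overlap and were above their ESC libraries, and *Pou5f1* (1933 and 1696 TPM in ESCs, 1596 and 1375 in EBs) had no overlap in the other direction. These patterns held in 23.3% and 22.7% of all genes.

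*Dppa2* was at 151 and 85.7 TPM in control ESCs of this line and at 139 and 105 TPM in control EBs. Its ESC level was above that of the *Pcgf1* line, the groups overlapped, and the log2 fold change was 0.08 (SE 0.34), with a 95% interval from -0.72 to 0.89. *Lin28a* was at 189 and 121 TPM in control ESCs and 194 and 175 TPM in control EBs, with a log2 fold change of 0.28 (SE 0.27). The difference of these changes from those in the *Pcgf1* line was not tested. In the same comparison 11 of 16 naive genes fell and 8 of 16 formative genes rose, with *Fgf5* at 0.318 and 33.3 TPM.

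Between mutant ESCs and mutant EBs of this line, 1 of the 8 genes was under an unadjusted p of 0.05, as were 9.73% of all genes, with 0.0493% called higher and 0.0838% lower. That gene was *Utf1*, at 397 and 314 TPM in mutant ESCs and 650 and 470 TPM in mutant EBs. Its log2 fold change was 0.65 (SE 0.27, limma adjusted p = 0.507). Of the lists, 1 formative gene was called, *Otx2* (8.25 and 50.1 TPM).

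Between mutant and control ESCs, 1 of the 8 genes was under an unadjusted p of 0.05, as were 16.7% of all genes, with 2.34% called higher and 0.197% lower. *Sox2* was at 509 and 518 TPM in control and 384 and 340 TPM in mutant ESCs, without overlap, at a log2 fold change of -0.51 (SE 0.14, limma adjusted p = 0.116). *Pou5f1* was also lower without overlap, at 1933 and 1696 TPM in control and 1649 and 1393 TPM in mutant ESCs, as were 12.9% of all genes. The median of the 8 genes was -0.38, beside 0.12 over all genes. Markers of other cell types were higher in the same mutant ESCs, with trophectoderm sums of 18.5-20 and 71.2-76.8 TPM in control and mutant ESCs (3 of 6 genes called higher), primitive endoderm sums of 17.7-19.5 and 61.7-62.4 TPM (3 of 8), neuroectoderm sums of 8.75-9.65 and 27.9-33.2 TPM (1 of 5), mesoderm sums of 11.4-15.7 and 20.8-20.9 TPM (1 of 6) and fibroblast sums of 48.5-53.2 and 94.1-94.9 TPM (0 of 10). Their part in the lower values of *Sox2* and *Pou5f1* was not tested. Another scaling, by median of ratios, moved the median of all genes by -0.14 here and by -0.13 in the EBs.

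Between mutant and control EBs, 5 of the 8 genes were lower in both mutant libraries than in both control libraries, and none was higher, a pattern that held lower for 13.6% of all genes and higher for 30.1%. With limma, 3 of the 8 had an unadjusted p under 0.05, as did 20.7% of all genes, and 3.76% of all genes were called higher and 0.764% lower. *Lin28a* was at 194 and 175 TPM in control EBs and at 93 and 89.1 TPM in mutant EBs. The log2 fold change was -1.02 (SE 0.27, limma adjusted p = 0.0823), and 0.0496 when only the EB groups were fitted. *Utf1* was at 1074 and 885 TPM in control and 650 and 470 TPM in mutant EBs, at a log2 fold change of -0.82 (SE 0.27, limma adjusted p = 0.139).

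*Sox2* was at 504 and 631 TPM in control EBs and 405 and 461 TPM in mutant EBs, with a log2 fold change of -0.38 (SE 0.14, limma adjusted p = 0.175). *Trim28* was at 1049 and 865 TPM in control and 769 and 622 TPM in mutant EBs, with -0.46 (SE 0.24), and *Dppa4* was at 230 and 178 against 174 and 160 TPM, with -0.28 (SE 0.16). *Dppa2* was higher in the mutant at both replicate numbers and both stages, by 0.38 to 0.49 on the log2 scale. Its groups overlapped, at 139 and 105 TPM in control and 192 and 136 TPM in mutant EBs, and the log2 fold change was 0.42 (SE 0.34, limma adjusted p = 0.543). The difference of the mutant effects between stages was called for none of the 8 genes, with 0 under an unadjusted p of 0.05, beside 0.00986% of all genes called.

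Other genes moved in the same comparison of EBs. A list of DPPA2 and DPPA4 targets and genes of the early embryo had 6 tested genes, of which 3 were higher in mutant EBs. They were *Zscan4c* (55.4 and 535 TPM), *Zscan4f* (72.2 and 687 TPM) and *Zscan4d* (36.3 and 337 TPM), near-identical genes of the early embryo whose reads may be split by counting. Sums over the 7 genes found of this list were 83.4-254 TPM in control and 1116-2081 TPM in mutant EBs. They were also higher without overlap in mutant ESCs, at 61.1-191 TPM in control and 627-1739 TPM in mutant ESCs. Whether DPPA2 and DPPA4 act on these genes was not tested. Of 16 naive genes 5 were higher, and of 16 formative genes 5 were lower and 3 higher, with *Fgf5* at 33.3 and 2.99 TPM. Of the LIN28 list *Hmga2* was higher (3.42 and 12.7 TPM) and *Mycn* lower (103 and 36.2 TPM). Fibroblast sums were 56.3-78.2 TPM in control and 101-111 TPM in mutant EBs, those of primitive endoderm 31.4-31.8 and 76.1-103 TPM, and those of trophectoderm 56.2-67.9 and 93.5-98.5 TPM. Their part in the lower values of *Lin28a* and *Utf1* was not tested.

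**Figure D3:**
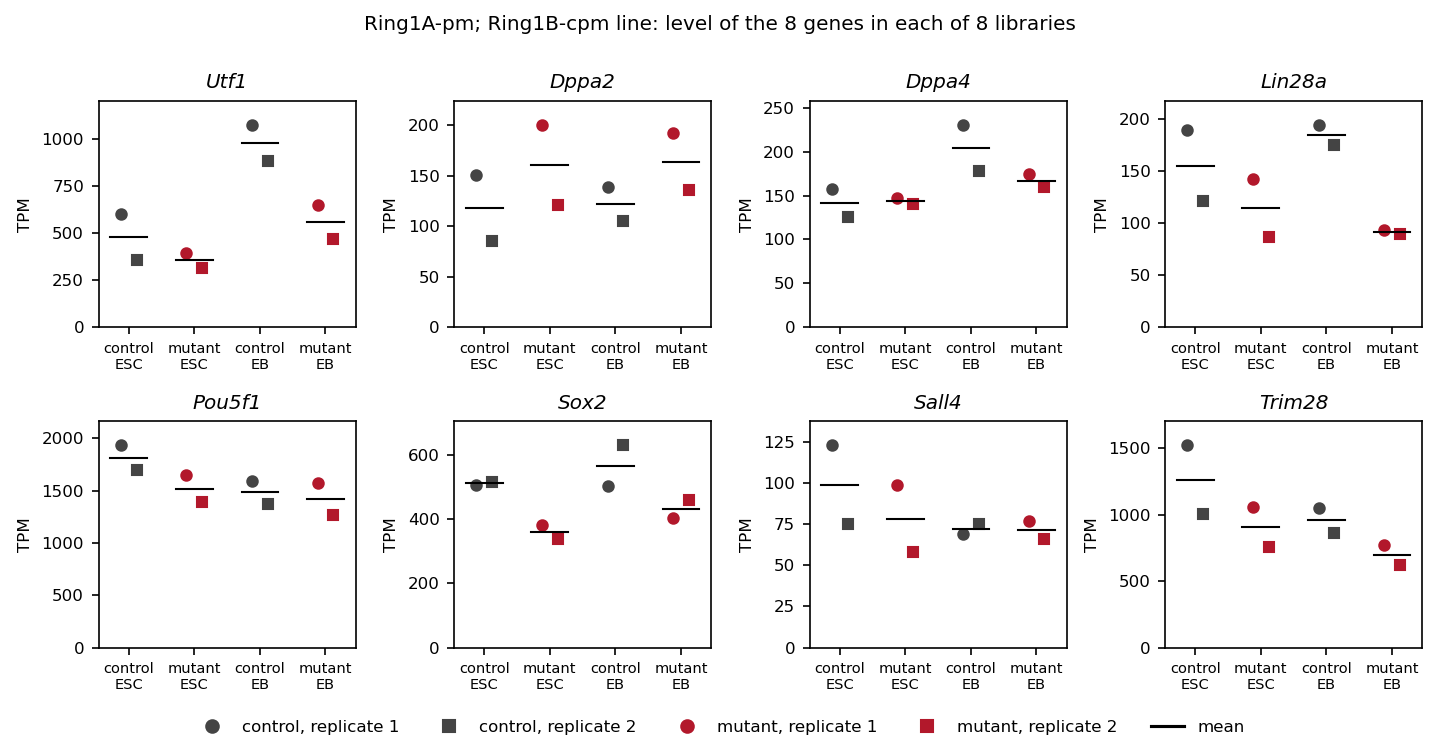
TPM (linear axis from 0) of the 8 genes in the 8 libraries of the point-mutant line, with a line at each group mean. Lin28a, Utf1, Sox2, Trim28 and Dppa4 are lower in both mutant EB libraries than in both control EB libraries.

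For the Ring1A/B, Pcgf2/4, Pcgf3/5 and *Pcgf6* cells the labels were kept for grouping, and calls between stages are also given for the 18 of 32 libraries whose label and file name give the same stage. By label, 4 of the 8 genes were called higher and 4 lower in EBs than in ESCs of the Ring1A/B line, where 39.1% of all genes were called higher and 19.4% lower. In the Pcgf2/4, Pcgf3/5 and *Pcgf6* lines limma called none, beside 0%, 0.00501% and 0.0406% of all genes. At an unadjusted p under 0.05 these were 0, 0 and 1 of the 8 genes, and 2%, 3.74% and 12.8% of all genes. The labelled stages of these lines mix libraries of both named stages, so counts by label are not read as an effect of stage.

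*Utf1* separated the libraries by the file name and not by the label. In the Pcgf2/4 line it was at 504 and 1303 TPM in the control ESC libraries, 489 and 1291 in mutant ESCs, 527 and 1264 in control EBs, and 514 and 1195 in mutant EBs. Each group held 1 low and 1 high library, and the name of the file gives ESC for the low and EB for the high one in all 4 groups. In the Ring1A/B line *Utf1* was at 244 and 258 TPM in control ESCs, 1272 and 1120 in mutant ESCs, 220 and 246 in control EBs, and 638 and 675 in mutant EBs. Here the 4 highest libraries carry EB in the file name. Sums of the 16 naive genes in this line were 4699-4837 TPM in control ESCs, 766-772 in mutant ESCs, 4247-4353 in control EBs and 2226-2245 in mutant EBs. Those of the 16 formative genes were 720-721, 1927-2019, 673-686 and 1833-1857 TPM. In all 4 lines, every library named EB had a lower naive sum and a higher formative sum than every library named ESC. The log2 fold change between labelled stages was -0.49 in the Ring1A/B line, 0 in the Pcgf2/4 line, 1.01 in the Pcgf3/5 line and -0.23 in the *Pcgf6* line.

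With the libraries whose label and name give the same stage, *Utf1* was called higher in EBs in all 4 lines. The log2 fold change was 1.39 in the Ring1A/B line (means of 251 and 657 TPM), 1.31 in the Pcgf2/4 line (497 and 1229 TPM), 1.84 in the Pcgf3/5 line (328 and 1174 TPM) and 0.84 in the *Pcgf6* line (595 and 1065 TPM). Limma adjusted p-values were 2.13e-05, 0.000706, 2.24e-06 and 0.0216. In the Ring1A/B line this sets control ESCs against mutant EBs, so stage and state cannot be told apart. In the Pcgf2/4 and *Pcgf6* lines it sets replicate 1 against replicate 2, with 2 libraries a stage. Both labelled states are at each stage there, but by file name all the ESCs are control and all the EBs mutant, so stage, named state and replicate cannot be told apart either. The Pcgf3/5 line has 3 libraries a stage, with control and mutant at each stage by label and by file name.

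Of the 8 genes, 7 were called in either direction in the Ring1A/B line, 4 in Pcgf2/4, 8 in Pcgf3/5 and 1 in *Pcgf6*, beside 56%, 28%, 41.3% and 16.2% of all genes. The limits given for *Utf1* hold for all 8 genes. Each change in the Ring1A/B line sets control ESCs against mutant EBs, so stage and state cannot be told apart there. Nor can stage, named state and replicate in Pcgf2/4 and *Pcgf6*. *Dppa2* was higher in EBs by 3.02, 1.10 and 0.79 on the log2 scale in the first 3 lines, all called, and by 0.59 in the *Pcgf6* line (adjusted p = 0.111 in limma). *Dppa4* was higher by 0.89, 0.99 and 0.69, all called, and by 0.32 in *Pcgf6* (0.113). *Lin28a* was higher by 0.81, 0.82 and 0.71, all called, and by 0.81 in *Pcgf6* (0.0515). Of the other 4 genes, *Pou5f1*, *Sall4* and *Trim28* had no common direction. *Sox2* fell by 0.98 on the log2 scale in the Ring1A/B line and by 0.29 in the Pcgf3/5 line, and was at -0.06 and -0.11 in Pcgf2/4 and *Pcgf6*. *Trim28* was higher by 0.42 in Ring1A/B and fell by 0.25 in Pcgf3/5, both called.

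**Figure D4:**
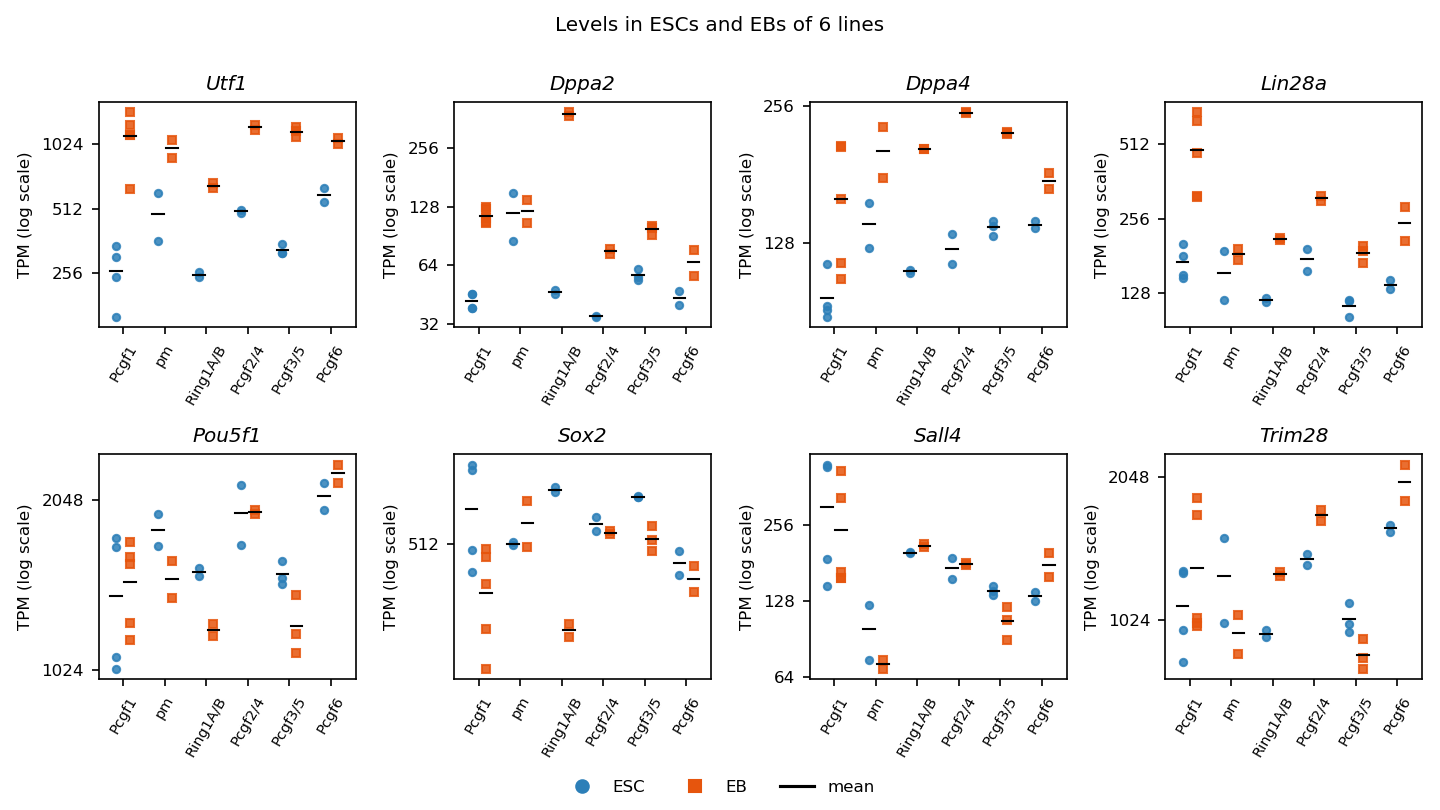
TPM (log axis) of the 8 genes in ESCs and EBs of 6 lines, control libraries for the Pcgf1 and point-mutant (pm) lines and libraries with the same stage in label and file name for the others, with a line at each mean. Utf1, Dppa2, Dppa4 and Lin28a have a higher mean in EBs in all 6 lines, and Pou5f1, Sox2, Sall4 and Trim28 do not keep 1 direction.

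*Dppa2* in the Ring1A/B line was at 48.0 and 45.8 TPM in control ESCs, 78.9 and 74.4 in mutant ESCs, 209 and 204 in control EBs, and 389 and 372 in mutant EBs. Replicates lay close together, and all 4 groups stood apart. In the file names the second group is control EBs and the third mutant ESCs. In the *Pcgf6* line *Dppa2* was at 150 and 151 TPM in replicate 1 of the control and mutant EBs and between 40.2 and 76.7 TPM in the other 6 libraries. Both high libraries are mutant ESCs in the file names.

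By label, 6 of the 8 genes were called between mutant and control ESCs of the Ring1A/B line (48.8% of all genes in either direction) and 7 between mutant and control EBs (33.3%). In the Pcgf2/4, Pcgf3/5 and *Pcgf6* lines limma called none of the 8 between mutant and control ESCs or EBs, with 0 under an unadjusted p of 0.05. Between 0% and 0.0401% of all genes were called there (in the Pcgf3/5 line, 0.0401% in ESCs and 0.0301% in EBs), and 0.599% to 2.1% were under an unadjusted p of 0.05. Since the state differs between label and name in these lines, the values are not read for an effect of any mutation.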

How the data were processed

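The 8 genes and the gene lists were chosen with earlier results of these data known. The authors aligned reads of 75 or 50 bp to mm9 with STAR (version 2.5.2b), counted them on exons and deposited TPM per gene symbol. The step from counts to TPM is not given in the sources used here. Every library sums to 1000000 TPM, and depth is unknown. The read lengths are per the study's methods and are not assigned to libraries.

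Libraries were grouped by their GEO labels. Of the Pcgf1 line, 1 mutant EB library is replicate 4 by title and 5 by characteristics, and the title was used. No 2 libraries held identical values. Values entered limma (version 3.58.1, in R version 4.3.3) as log2(TPM + 0.1), with 1 model per line that held its 4 groups and an empirical Bayes variance trend (two-sided), over genes above 0 TPM in at least 1 library of the line. p-values were adjusted over all genes by Benjamini-Hochberg, and an adjusted p under 0.05 was a call. Fold changes are on the log2(TPM + 0.1) scale, which understates changes of low genes. The fit was tested on simulated data.

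In the Pcgf1 line, same-numbered libraries deviated together from their group means in 27 of 27 pairs (r from 0.32 to 0.65, over 13400 genes). The numbers in the labels were therefore used to pair them. Libraries of the same series with different numbers were not compared, so this check cannot tell pairing by number from a shared series. Named genes are the 8 members in every comparison, the targeted genes once, up to 4 genes of a list with the largest change among those called, and the 3 genes with the highest r to each member (some of these genes, and the upstream window of 1 member, are not reported here). Further genes of a list were named after their values were seen. Alternatives were a pseudocount of 1, a filter at a mean of 1 TPM, scaling by median of ratios, a replicate block, the 2 groups alone, each library left out, and libraries whose label and file name give the same stage. A block for library series and the values within series were added after the data were seen. Windows upstream of genes were read from mm9 with GENCODE M1 in Python (version 3.11.15), with numpy (version 2.4.6), pandas (version 2.3.3) and matplotlib (version 3.10.9).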

Additional observations from a re-analysis of the deposited data

How the results depend on the processing

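Apart from left-out libraries, 145 of 166 counts of called genes stayed within 1.5 times, and of 342 changes of single genes 300 kept direction and side of the threshold, 32 gained a call, 4 lost one and 6 reversed. In the Pcgf1 line, the replicate block and the library series block each gave 1 gene lower in control EBs against control ESCs, 5 higher in mutant EBs against mutant ESCs, 2 higher in mutant against control ESCs, and 2 higher with 1 lower in mutant against control EBs. The last comparison also had 2 higher with a pseudocount of 1 and with the filter at a mean of 1 TPM. With only the groups compared, 0 were higher in mutant ESCs and 0 in mutant EBs. In the point-mutant line, control EBs against control ESCs had 1 higher with that filter and 2 with the replicate block (Utf1 and Dppa4, limma adjusted p = 0.00617 and 0.0339), and mutant against control EBs had 3 lower with the block (Utf1, Lin28a and Trim28, limma adjusted p = 0.0142, 0.0218 and 0.0428) and 1 with only the groups compared. Same-numbered libraries there had r from 0.11 to 0.38 and only 2 pairs a comparison. The block changed no other count of called genes by over 1.5 times. Shares of all genes called are not given for the alternatives in this paragraph, so these counts stand without that comparison.

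Libraries with the same stage in label and file name gave 4 called genes in the Pcgf2/4 line, 8 in Pcgf3/5 and 1 in Pcgf6. They reversed Utf1 and Lin28a in Ring1A/B (1.39 and 0.81), Utf1 in Pcgf2/4 (1.31), and Utf1 and Lin28a in Pcgf6 (0.84 and 0.81), and median-of-ratios scaling reversed Dppa4 in Pcgf6 (-0.33). The cause of the other changes was not tested.

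With each library left out in turn, counts in the Pcgf1 line ranged from 0 to 1 (lower in control EBs against control ESCs, and higher in mutant against control ESCs). They ranged from 1 to 2 (higher in mutant against control EBs) and from 3 to 4 (higher in mutant EBs against mutant ESCs). By label in the Ring1A/B line, they ranged from 7 to 8 (EBs against ESCs) and from 6 to 7 (mutant against control EBs). Small changes crossed 0 in the Pcgf1 line. These were Pou5f1 in EBs against ESCs of controls (-0.03 to 0.23) and mutants (-0.06 to 0.16) and in mutant against control EBs (-0.03 to 0.19), Sox2 (-0.17 to 0.03) and Sall4 (-0.45 to 0.04) in mutant EBs against mutant ESCs, Lin28a (-0.06 to 0.18) and Trim28 (-0.21 to 0.02) in mutant against control ESCs, Utf1 (-0.25 to 0.06) and Trim28 (-0.16 to 0.10) in mutant against control EBs, and Dppa2 in the difference between stages (-0.02 to 0.10). By label, EBs against ESCs crossed 0 for Utf1 (-0.35 to 0.34), Lin28a (-0.04 to 0.34) and Dppa4 (-0.17 to 0.32) in Pcgf2/4, and for Utf1 (-0.52 to 0.06), Lin28a (-0.39 to 0.39) and Dppa4 (-0.05 to 0.15) in Pcgf6. Depth cannot be read from TPM, and 2 libraries a group limit the point-mutant line.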
